A study of Mus musculus with 2 samples.

Results

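The genes of glucose and lactate transport, glycolysis, pyruvate oxidation, the citric acid cycle and the malate-aspartate shuttle were examined in RNA pulled down with the ribosomes of cells that express Drd2, the dopamine D2 receptor gene, in the medial prefrontal cortex of adult mice. The set was chosen by name: 42 genes of these pathways were listed, and a gene counted as measured where at least 1 probe set of the array named it and no other gene. This left 39 of the 42, out of 22180 named genes. Gpi1 and Eno1 matched no probe set, and Aldoa was named only together with another gene, so all 3 were not analysed here.

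The mice were D2Cre::RiboTag animals. Cre recombinase follows the Drd2 gene in them, and Cre switches on a haemagglutinin-tagged ribosomal protein, so that an antibody to the tag pulls down ribosomes with the messengers on them. Both arrays hold RNA of this genotype, tissue and age, labelled as technical replicates 1 and 2 of a pool of 5 mice. The labels leave unsaid whether that pool was the same for both, and it was taken to be. There was no control sample, no unprecipitated RNA and no second condition. The values therefore show which genes gave signal, and not whether they were enriched over whole cortex, and no p-value is given. With 2 technical arrays, the spread measures repeated laboratory steps and not the variation between animals, and the number of arrays limits the precision. In such bulk RNA, fewer cells of a type and less RNA per cell cannot be told apart.

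Glycolysis splits glucose into pyruvate in the cytosol. Pyruvate is either reduced to lactate by lactate dehydrogenase or burnt in mitochondria, where the pyruvate dehydrogenase complex turns it into acetyl-CoA for the citric acid cycle. Pyruvate dehydrogenase kinases switch that complex off. Neurons are known for a high oxidative demand and for taking up both glucose and lactate, while astrocytes are known for releasing lactate. The malate-aspartate shuttle carries the reducing power of cytosolic NADH into mitochondria and needs a dehydrogenase and a transaminase on each side of the membrane.

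All 39 measured genes were above background on both arrays, against 60.3% of all named genes. The background level came from 1390 receptor genes of the olfactory and vomeronasal organs, which are not known as cortical genes, and was set at their 95th percentile, 5.62 log2 units on replicate 1 and 5.67 on replicate 2. A stricter threshold was the 95th percentile of 32 genes of testis, liver and skeletal muscle, at 7.26 and 7.06 (the out-of-tissue threshold). Of the 39 genes, 35 exceeded it, against 38.2% of all named genes. The 4 that did not were Hk2, Ldha, Pdk1 and Pdk4. The median over all probe sets, 5.80 and 5.81, was exceeded by all 39 and by 57.5% of named genes. The median log2 signal of the set was 10.34 on replicate 1 and 10.28 on replicate 2, beside 6.36 on both arrays for all named genes. The binding strength of probe sets varies, so each gene is set against the thresholds and not against another gene.

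The gene that drives Cre and markers of neurons, the cell type on the label, gave signal, which does not show that they were enriched. Drd2 itself read 10.78 and 10.70, a mean of 5.10 log2 units over background. All 10 neuronal markers passed the out-of-tissue threshold, among them Snap25 at 13.69 and 13.70 and Rbfox3 at 11.58 and 11.65. Their medians were 11.88 on replicate 1 and 11.85 on replicate 2, and the lowest was Elavl4 at 7.76 and 7.50. Map2 read 12.04 and 12.05, and Syt1 13.23 and 13.18. Most markers of other cells were above background too. The out-of-tissue threshold was passed by 7 of 10 astrocyte markers and 6 of 8 oligodendrocyte markers. It was also passed by 2 of 10 endothelial and mural markers and 3 of 9 microglia markers. Of all named genes, 60.3% were above background and 38.2% above the out-of-tissue threshold.

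**Figure D1:**
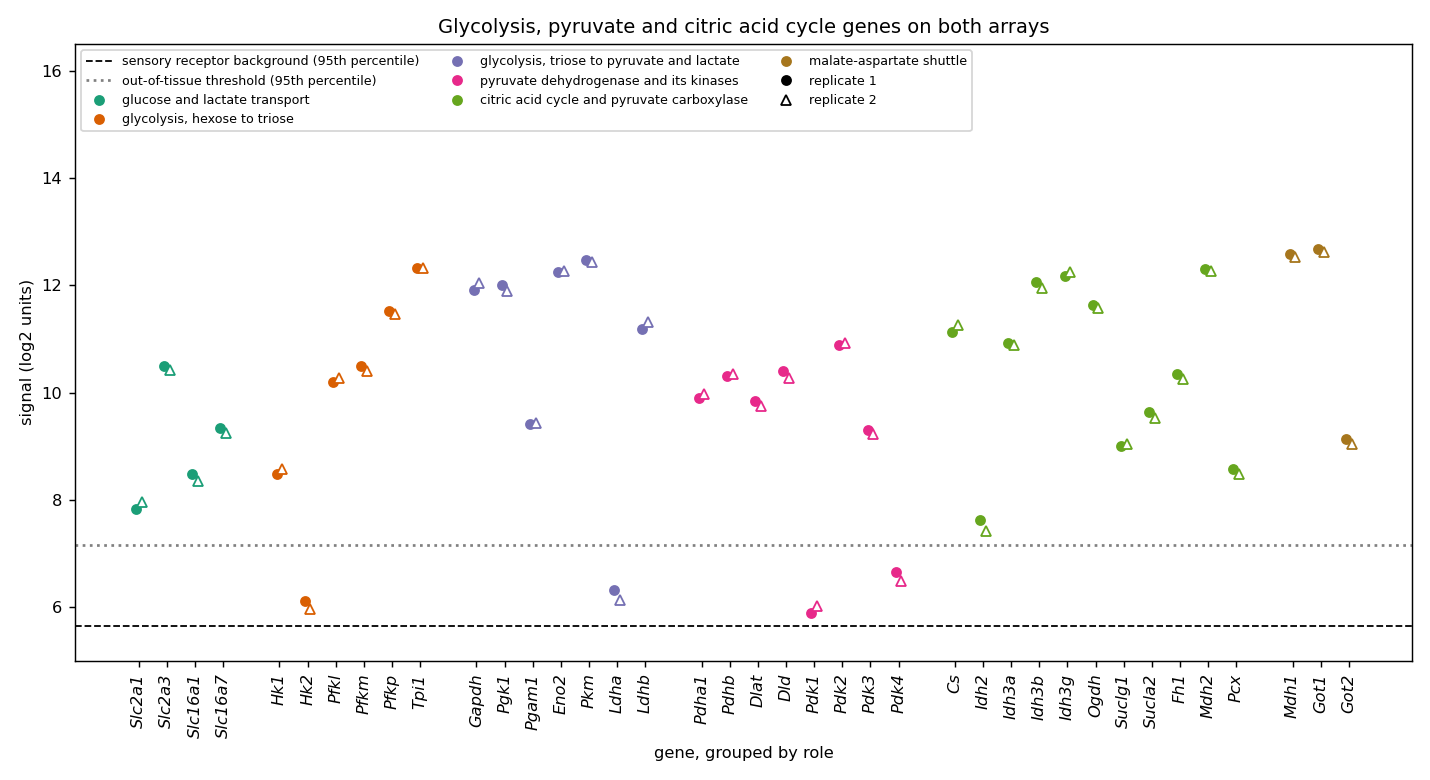
Signal in log2 units (vertical axis) of the 39 measured genes (horizontal axis, coloured by role) on replicate 1 (filled circles) and replicate 2 (open triangles). The dashed and dotted lines are the background and out-of-tissue thresholds averaged over the arrays, 5.64 and 7.16. All points lie over the dashed line, and Hk2, Ldha, Pdk1 and Pdk4 lie between the lines.

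The 4 listed transporters of glucose and lactate were all above the out-of-tissue threshold, against 38.2% of all named genes. This does not hold for every related transporter measured. Outside the set, Slc16a3 read 6.23 and 5.97, under that threshold, and Slc2a8 read 7.50 and 7.69, over it. Slc2a3, the glucose transporter known from neurons, read 10.50 on replicate 1 and 10.43 on replicate 2, a mean of 4.82 log2 units over background. Slc16a7, the monocarboxylate transporter known for lactate uptake by neurons, read 9.35 and 9.25. Slc2a3 and Slc16a7 stood at least 2.14 log2 units over the out-of-tissue threshold on average.

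Slc2a1 and Slc16a1 are known from the vessel wall and from glia. Slc16a1 read 8.49 and 8.35, a mean of 2.78 over background. Slc2a1 had a probe set at 9.87 and 10.05 and another at 5.80 and 5.86, whose mean was 2.25 over background. Endothelial and mural markers had a median of 6.84 on replicate 1 and 6.77 on replicate 2, and their means ranged from 4.37 for Ly6c1 to 8.04 for Acta2. Flt1 was at 7.26 and 7.06, Pecam1 at 6.75 and 6.60, Tek at 6.11 and 6.18, and Cldn5 at 5.95 and 6.12. Thus 9 of these 10 markers were above background and 2 above the out-of-tissue threshold. Oligodendrocyte markers were at a median of 8.40 and 8.39, with Mbp at 9.13 and 9.19, Mog at 7.17 and 7.13, Mag at 8.11 and 8.22 and Mobp at 9.38 and 9.40. All 8 of them were above background. The part of these cells in the signal of Slc2a1 and Slc16a1 was not tested.

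In the upper part of glycolysis, from hexose to triose phosphates, 5 of 6 measured genes passed the out-of-tissue threshold. Of all named genes, 38.2% did. Hexokinase commits glucose to the cell by phosphorylating it. Hk1, the form known from brain, read 8.49 and 8.57, whereas Hk2, the form known from insulin-sensitive tissue, read 6.11 and 5.97. Hk1 thus lay 2.89 log2 units over background and Hk2 only 0.40. Phosphofructokinase, the main control point of glycolysis, is built from 3 kinds of subunit, and all gave clear signal. Pfkl read 10.20 and 10.28, Pfkm 10.49 and 10.41, and Pfkp 11.52 and 11.46, at 4.60, 4.81 and 5.85 over background. The triose phosphate isomerase gene Tpi1 had the same value, 12.32, on both arrays.

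The lower part, from triose phosphates to pyruvate and lactate, had 6 of 7 measured genes above the out-of-tissue threshold, against 38.2% of named genes. Pgk1, the phosphoglycerate kinase, which makes ATP directly, had a mean of 11.95 ± 0.07 (SD, n = 2 technical arrays) and read 11.90 on replicate 2. Eno2, the neuronal enolase, read 12.25 and 12.26. Pkm, the pyruvate kinase of brain and muscle, read 12.47 and 12.44. These 3 genes lay 6.31, 6.61 and 6.81 log2 units over background, and their arrays differed by at most 0.10.

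The lactate dehydrogenase subunits fell on different sides of the out-of-tissue threshold. Ldhb, the subunit known for favouring the use of lactate as fuel, read 11.19 and 11.32, or 5.61 over background. Ldha, the subunit known for favouring lactate production, read 6.32 and 6.14, or 0.59 over background. Each rests on 1 probe set, and the 2 probe sets can differ in how well they bind, so the gap between them is not a ratio of the messengers.

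Promoter sequences are shown for Ldha, Hk2 and Pdk4, the genes between the thresholds that had 1 probe set each, and for Ldhb as the isoenzyme of Ldha. They are RefSeq sequences of the build GRCm38.p6, from 250 bases before the start to 50 after it, at the most upstream start in the table. Capitals mark the core of the hypoxia response element, ACGTG or GCGTG on either strand, the letters bound by hypoxia-inducible factor, which is known to drive glycolytic genes. Ldha had 2 starts in the table and the other 3 genes had 1.
Ldha promoter (chr7:46845554-46845853, plus strand): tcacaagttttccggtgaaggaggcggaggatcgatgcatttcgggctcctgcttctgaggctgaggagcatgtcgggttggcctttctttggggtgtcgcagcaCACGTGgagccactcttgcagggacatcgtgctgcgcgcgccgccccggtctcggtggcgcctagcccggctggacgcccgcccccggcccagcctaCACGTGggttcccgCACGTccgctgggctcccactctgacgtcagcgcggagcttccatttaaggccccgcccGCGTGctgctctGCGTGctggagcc
Ldhb promoter (chr6:142507908-142508207, minus strand): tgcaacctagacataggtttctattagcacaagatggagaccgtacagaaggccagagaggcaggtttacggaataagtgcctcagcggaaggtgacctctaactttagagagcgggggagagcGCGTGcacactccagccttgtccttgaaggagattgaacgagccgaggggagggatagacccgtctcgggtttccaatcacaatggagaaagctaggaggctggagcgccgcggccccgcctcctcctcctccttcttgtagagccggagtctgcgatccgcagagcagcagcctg
Hk2 promoter (chr6:82774405-82774704, minus strand): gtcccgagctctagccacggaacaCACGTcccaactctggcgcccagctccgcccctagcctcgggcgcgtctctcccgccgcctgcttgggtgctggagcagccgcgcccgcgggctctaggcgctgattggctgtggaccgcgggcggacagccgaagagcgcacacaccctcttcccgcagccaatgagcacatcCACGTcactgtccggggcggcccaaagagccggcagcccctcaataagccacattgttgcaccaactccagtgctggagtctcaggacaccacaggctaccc
Pdk4 promoter (chr6:5496229-5496528, minus strand): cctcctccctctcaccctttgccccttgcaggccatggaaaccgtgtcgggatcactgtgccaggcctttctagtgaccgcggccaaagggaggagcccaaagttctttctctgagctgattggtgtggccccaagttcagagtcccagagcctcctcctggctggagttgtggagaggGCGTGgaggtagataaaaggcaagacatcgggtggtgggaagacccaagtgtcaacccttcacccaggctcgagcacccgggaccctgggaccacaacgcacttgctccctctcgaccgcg

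The Ldha window held 5 separate stretches of these letters, the Hk2 window 2, and the Ldhb and Pdk4 windows 1 each. Short motifs are common in windows rich in G and C. Of the 36 measured genes with a window in the table, 27 (75.0%) held the core, against 43.8% of all 27025 windows and 49.2% of the 17492 windows of protein-coding genes. The windows of the set were also richer in G and C, at a median of 61.3% against 56.3% for protein-coding genes. The GC box GGGCGG, bound by Sp1, was in 61.1% of the set and 46.3% of protein-coding genes. The cyclic AMP response element TGACGTCA was found in Ldha, Mdh2 and Ogdh, or 8.33% of the set against 2.33%. The E-box CACGTG, which overlaps the hypoxia core, was in 13.9% against 7.91%. The TATA box TATAAA was found in 3 of 36 windows, or 8.33% against 13.3%, a gap that rests on few windows. The palindromic NRF1 site was found in Pgam1 alone, 2.78% against 1.33%, and the estrogen-related receptor element TCAAGGTCA in 0 of 36 windows against 0.332%. These 7 motifs were searched on both strands, and a match is a description of the letters and not of binding.

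Pyruvate dehydrogenase acts on pyruvate inside mitochondria, and each of its 4 subunits in the set passed the out-of-tissue threshold. That threshold was passed by 38.2% of all named genes. Of the pyruvate dehydrogenase complex, Pdha1 and Pdhb, the subunits of its decarboxylase, read 9.90 and 9.97, and 10.31 and 10.35. Dlat, the acetyl transferase, read 9.84 and 9.76. Dld, the dehydrogenase that the complex shares with other enzymes, read 10.41 and 10.27. All 4 lay at least 4.16 log2 units over background. Pdhx, a further component of the complex outside the set, read 9.21 and 9.10 and also passed the out-of-tissue threshold.

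The kinases that inhibit the complex were divided by the out-of-tissue threshold. Pdk2 read 10.88 and 10.93 and Pdk3 read 9.30 and 9.22, at 5.26 and 3.62 over background. Pdk4, known for its rise in fasting, read 6.65 and 6.49, at 0.93 over background. Pdk1 averaged 5.90 and 6.02, only 0.32 over background, but its probe sets disagreed. One probe set of Pdk1 read 8.49 and 8.59, over the out-of-tissue threshold, and the other read 3.31 and 3.44, under background.

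The citric acid cycle genes and pyruvate carboxylase all passed the out-of-tissue threshold, 11 of 11, against 38.2% of all named genes. Cs, citrate synthase at the entry of the cycle, read 11.13 and 11.26. The NAD-dependent isocitrate dehydrogenase showed signal for each of its subunits, with Idh3a at 10.93 and 10.88, Idh3b at 12.06 and 11.96 and Idh3g at 12.18 and 12.25. These lay 5.26, 6.37 and 6.57 over background. Idh2, the NADP-dependent mitochondrial enzyme, read 7.63 and 7.42, a mean of 0.37 over the out-of-tissue threshold and the smallest margin among these 11 genes.

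Further around the cycle, Ogdh, the oxoglutarate dehydrogenase, read 11.63 and 11.58. Of the succinyl-CoA ligase, the shared subunit Suclg1 read 9.01 and 9.04 and the ATP-forming subunit Sucla2 read 9.63 and 9.53. Fh1, fumarase, read 10.34 and 10.26, and Mdh2, the mitochondrial malate dehydrogenase, 12.30 and 12.26. Each of these 5 genes was at least 3.38 log2 units over background.

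Pcx encodes pyruvate carboxylase, which refills the cycle and is known in brain as an astrocyte enzyme. It read 8.57 and 8.48, or 2.88 over background. The 10 astrocyte markers were all above background, with medians of 7.66 and 7.62 and means from 5.72 for Gjb6 to 9.51 for Slc1a2. Gfap was at 6.65 and 6.68, Aqp4 at 6.92 and 6.94, Aldh1l1 at 7.50 and 7.30, and Slc1a3 at 8.67 and 8.60. Microglia markers were above background in 9 of 9 cases and had medians of 6.58 and 6.81, with Cx3cr1 at 7.76 and 7.91, Tmem119 at 6.54 and 6.62, P2ry12 at 6.58 and 6.84 and Aif1 at 5.79 and 5.90. The part of astrocytes in the Pcx signal was not tested.

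The malate-aspartate shuttle gave signal on both sides of the mitochondrial membrane. In the cytosol, Mdh1 read 12.59 and 12.53 and the transaminase Got1 read 12.68 and 12.63, at 6.92 and 7.01 over background. Inside mitochondria, Got2 averaged 3.45 over background from probe sets that disagreed, at 12.14 and 12.18 and at 6.13 and 5.92. The signal of Mdh2, the mitochondrial partner of Mdh1, was 6.64 over background.

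Of the 39 genes, 34 had 1 probe set and 5 had several, and the probe sets of those 5 differed from each other. The numeric identifiers of the probe sets run along the genome. For 97.2% of the 23328 probe sets with a gene in the RefSeq table, at least 15 of the 20 nearest identifiers belonged to genes on the same chromosome. Where strand was known, most or an equal share of the neighbours on that chromosome shared the strand of the gene in 96.5%. Slc2a3, Slc16a7 and Idh3a had no strand in the tables and were judged by chromosome alone. Coordinates of the probe sets were not used here. By this measure 38 of the 45 probe sets of the set stood among neighbours of their own gene and 7 did not.

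All 7 belonged to the 5 genes with several probe sets. For Got2, 19 of the 20 neighbours of the probe set at 12.14 and 12.18 were on its chromosome, and 0 of 20 for the probe set at 6.13 and 5.92. The probe set of Pdk1 at 8.49 and 8.59 had 20 of 20, and the one at 3.31 and 3.44 had 8. Both Slc2a1 probe sets lay on the right chromosome, but 18 of 19 neighbours of known strand shared the strand of the gene at the brighter one and 1 of 18 at the dimmer one. Here the dimmer probe set was the one without matching neighbours in all 3 genes.

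Pgam1, the phosphoglycerate mutase, showed the opposite order. Its probe set with matching neighbours read 8.42 and 8.49, and the one with 0 matching neighbours read 10.42 and 10.37. Gapdh, the dehydrogenase often used as a reference gene, had 3 probe sets, at 13.37 and 13.46, 13.22 and 13.36, and 9.17 and 9.31, and none had a neighbour on its chromosome. A further 8 probe sets named Gapdh together with another gene and were not used. Gapdh is known for many processed pseudogenes, so its mean of 11.92 and 12.04 is uncertain as a level of the Gapdh messenger. With only the probe sets whose neighbours match, the mean was 9.96 for Slc2a1, 12.16 for Got2, 8.54 for Pdk1 and 8.46 for Pgam1, and Gapdh had no value. This choice was made after the data were seen.

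**Figure D2:**
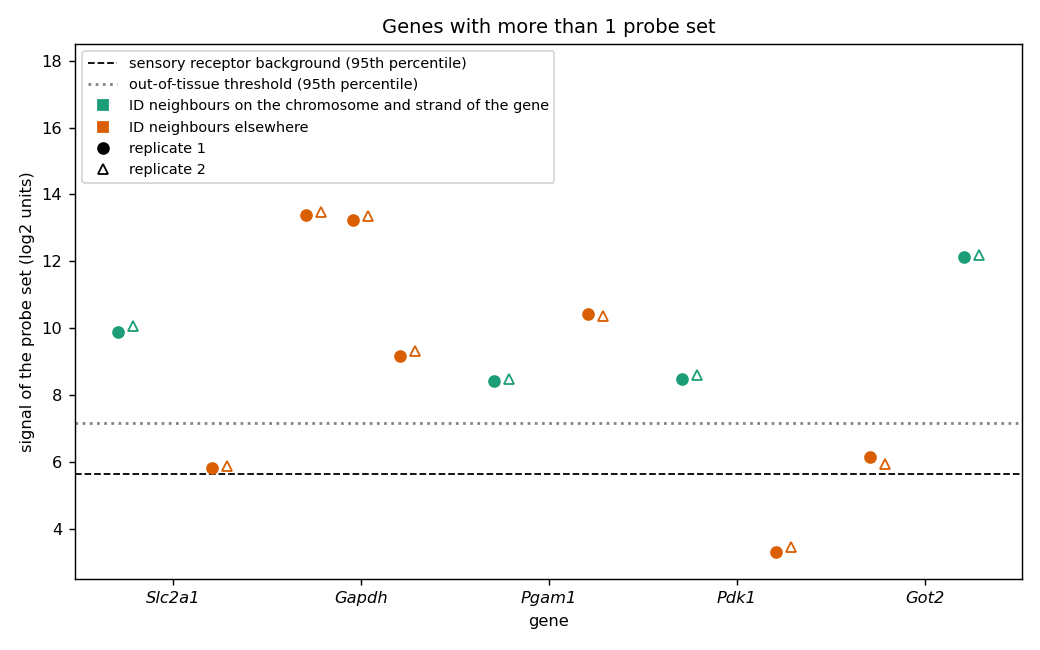
Signal in log2 units (vertical axis) of each probe set of the 5 genes with more than 1 (horizontal axis), on replicate 1 (filled circles) and replicate 2 (open triangles). Green marks probe sets whose neighbours by identifier lie on the chromosome and strand of the gene and orange those whose neighbours lie elsewhere, and the lines are the thresholds averaged over the arrays. Within Slc2a1, Pdk1 and Got2 the green probe set is the brighter one, within Pgam1 the orange one, and Gapdh has only orange ones.

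A list of 40 further genes of the same pathways had 37 measured. Of these, 34 (91.9%) were above background and 29 (78.4%) above the out-of-tissue threshold, against 60.3% and 38.2% of all named genes. Their medians were 8.38 on replicate 1 and 8.30 on replicate 2. The list holds Slc2a13 and Pgam5, which are known as an inositol transporter and a phosphatase despite their family names. The hexokinase-like gene Hkdc1 read 7.81 and 7.63, the ADP-dependent glucokinase Adpgk 7.82 and 7.93, and the phosphoglucomutase Pgm2 7.37 and 7.30. All 3 exceeded the out-of-tissue threshold.

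The 3 further genes that were not above background on both arrays were Hk3, Slc25a13 and Suclg2. Hk3, the hexokinase known from blood cells, read 5.66 and 5.59 and passed on replicate 1 only. Slc25a13, the aspartate-glutamate carrier known from liver, read 5.66 and 5.65 and likewise passed on replicate 1 only. Its relative Slc25a12, the carrier known from brain and a part of the malate-aspartate shuttle, read 11.49 and 11.45, 5.83 over background. Suclg2, the GTP-forming partner of Suclg1, averaged 5.27 and 4.95. Its probe set with matching neighbours read 6.48 and 6.36 and was above background, and the other read 4.05 and 3.54.

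Isoenzymes and related transporters known from other tissues were set beside these genes, and the list is called isoenzymes of other tissues here. Most belong to the same gene families. Fbp1, Fbp2, G6pc and Pck1 do not, and are genes of gluconeogenesis. Of the 18 measured, 8 (44.4%) were above background, against 60.3% of all named genes, with medians of 5.54 and 5.59. None (0 of 18) was above the out-of-tissue threshold. That count was nearly fixed in advance. The list was written from much the same tissues as the 32 genes that set this threshold, of which only 2 passed it. The 0 is therefore not an independent comparison. Those not above background included Slc2a2, the glucose transporter of liver and pancreas, at 5.38 and 5.12, and Slc2a5, the fructose transporter, at 5.37 and 5.13. Slc16a8, known from the retinal pigment epithelium, read 5.31 and 5.58.

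The 8 above background were the insulin-responsive transporter Slc2a4 at 5.98 and 5.87, the muscle genes Fbp2 at 5.76 and 5.79, Pgam2 at 6.95 and 6.84 and Eno3 at 7.02 and 7.18, and 4 others. These were Gapdhs of sperm at 6.12 and 6.09, Eno4 at 6.11 and 5.91, Pklr of liver and red cells at 5.64 and 6.04, and Pck1, the gluconeogenic enzyme, at 5.91 and 6.24. Only Pgam2 and Eno3 among them exceeded 6.64, the 99th percentile over the same sensory receptors on both arrays. Eno3 also exceeded the out-of-tissue threshold on replicate 2, but not on replicate 1. At that percentile 35 of the 39 pathway genes passed, against 44.9% of all named genes.

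**Figure D3:**
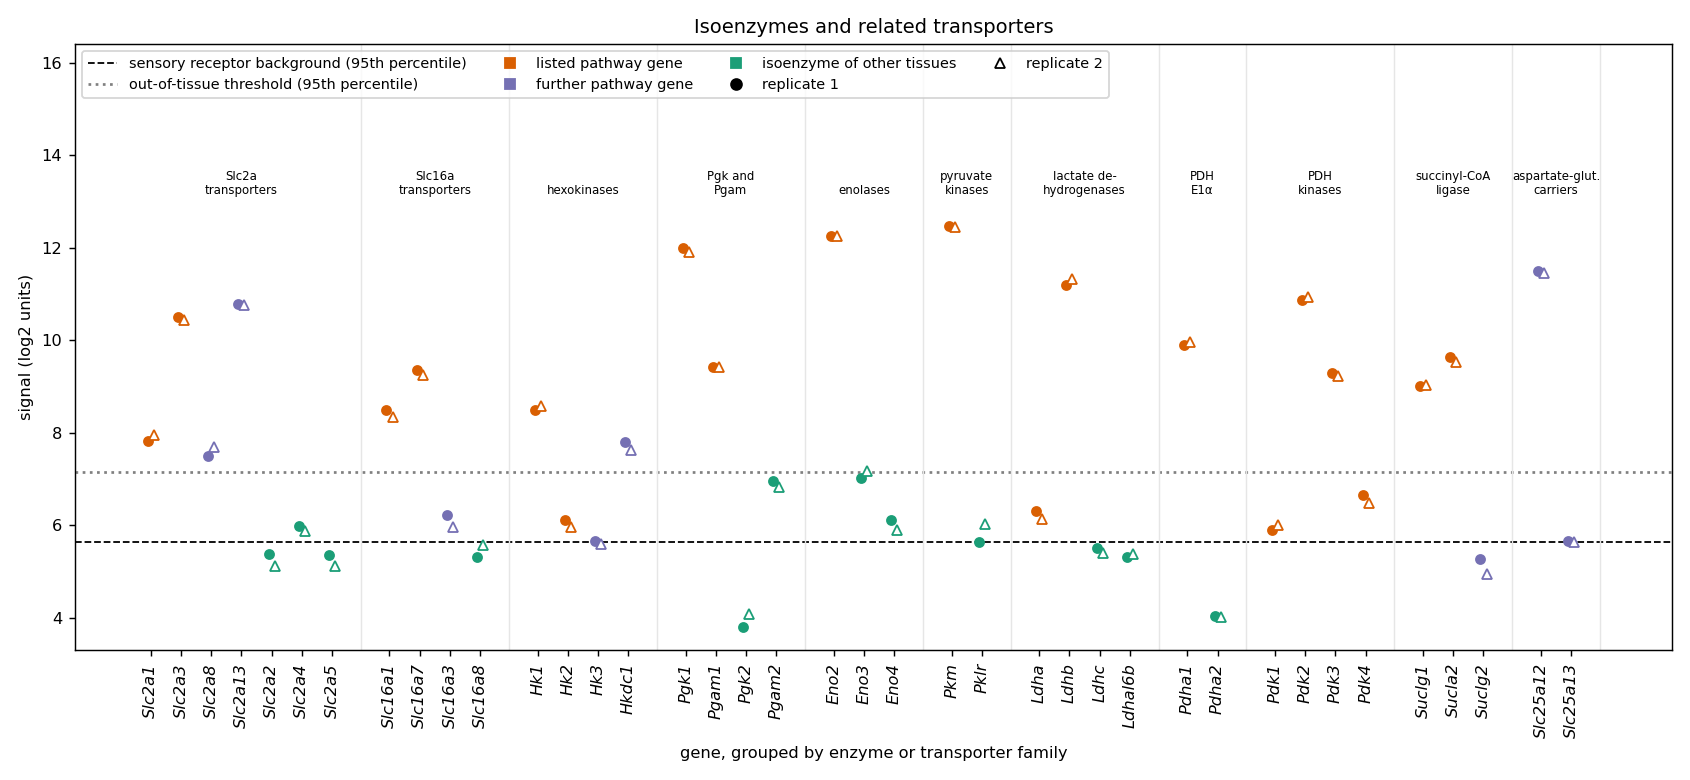
Signal in log2 units (vertical axis) of related genes (horizontal axis, grouped by family) on replicate 1 (filled circles) and replicate 2 (open triangles), with the thresholds averaged over the arrays as lines. Orange marks genes of the set, purple further pathway genes and green isoenzymes known from other tissues. No green gene exceeds the dotted out-of-tissue threshold on both arrays, and Hk2, Ldha, Pdk1 and Pdk4 are the orange genes under it.

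**Figure D4:**
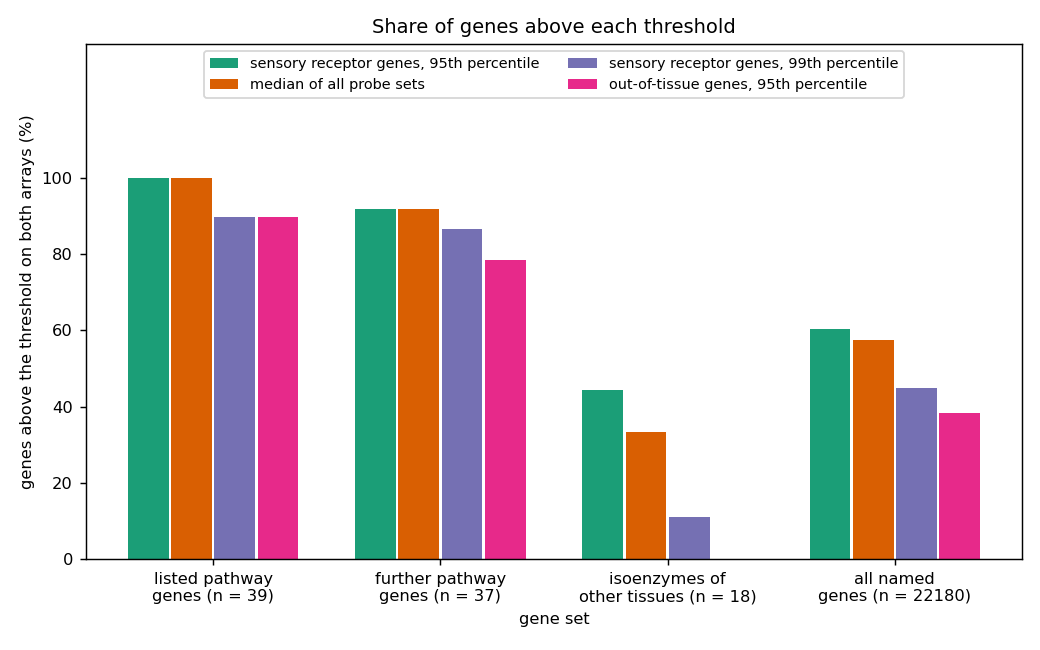
Share of genes (vertical axis, percent) above each of 4 thresholds on both arrays, for 4 gene sets (horizontal axis). These are the 39 pathway genes, 37 further pathway genes, 18 isoenzymes and related genes of other tissues, and all 22180 named genes. The bars for the pathway genes run from 100% at the sensory receptor background to 89.7% at the out-of-tissue threshold, and those for all named genes from 60.3% to 38.2%.

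The arrays repeated each other closely for these genes. The absolute difference between arrays had a median of 0.08 log2 units in the set and of 0.09 over the 13374 named genes above background. The largest in the set was 0.21, for Idh2, and 0 of 39 differed by more than 0.5, against 0.516% of genes above background. The set had 24 genes lower on replicate 2, 14 higher and 1 equal, that is Tpi1. Over all genes above background 53.5% were lower and 42.8% higher on replicate 2. The malate-aspartate shuttle genes were lower on replicate 2 in 3 of 3 cases, by at most 0.09, within the spread of other genes. For Got2 this came from its dimmer probe set, at 6.13 and 5.92, whose neighbours did not match. The Got2 probe set with matching neighbours was higher on replicate 2, at 12.14 and 12.18.

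Over all named genes the spread between arrays fell with signal, while in the set, with few genes in each range, it did not fall at every step. The 14 genes at 11 log2 units or more had a standard deviation of the difference of 0.083, beside 0.093 for 628 named genes in that range. Between 9 and 11, the values were 0.071 for 16 genes of the set and 0.108 for 3182 named genes. From 7 to 9 they were 0.142 for 5 genes of the set and 0.139 for 5377 named genes. Below 7 lay Hk2, Ldha, Pdk1 and Pdk4, with 0.138, beside 0.263 for 12993 named genes.

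**Figure D5:**
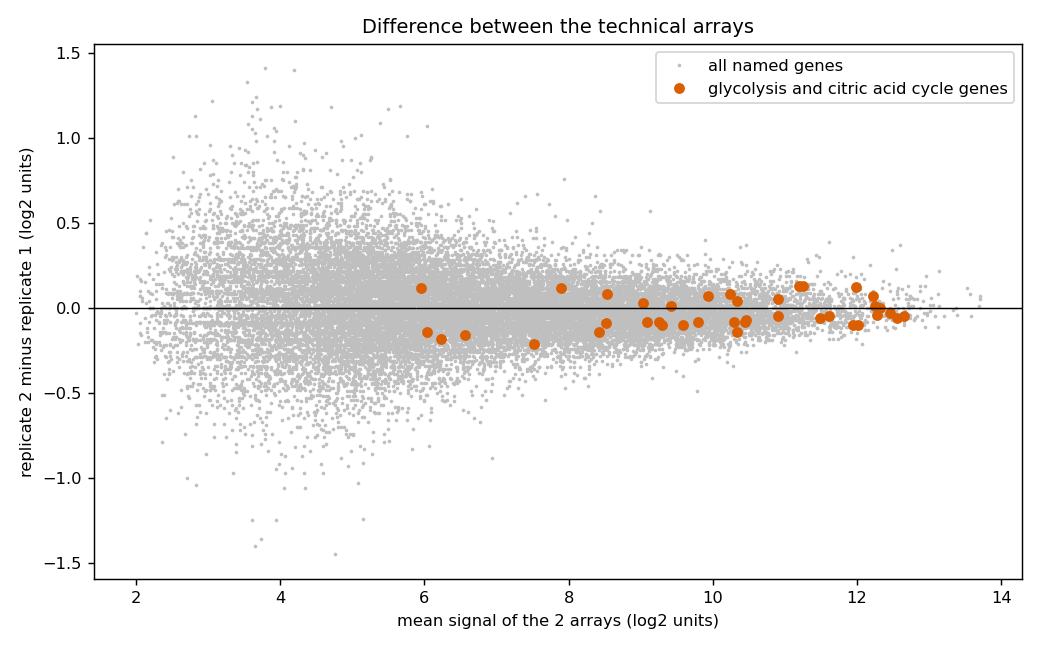
Difference between the arrays, replicate 2 minus replicate 1 in log2 units (vertical axis), against the mean signal in log2 units (horizontal axis), for all 22180 named genes (grey) and the 39 pathway genes (orange). The orange points stay within 0.21 of the zero line, while grey points at low signal reach 1.45.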

How the data were processed

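Per the labels, RNA from ribosomes precipitated with an antibody to haemagglutinin was extracted with Trizol and a column and labelled with the Affymetrix WT Plus kit. The table the authors deposited holds 1 log2 value per probe set and array. The log scale was inferred from the values, and no source used here gives the summarisation, background correction or normalization. Of 34472 probe sets, 23521 name 1 gene in the platform annotation, 1814 several and 9137 are unnamed here. Probe sets of a gene were averaged, giving 22180 genes, and symbols were checked against RefSeq (GRCm38.p6), which changed 0. A gene was above background where its signal on each array was higher than the 95th percentile over sensory receptor genes.

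The genes, lists and thresholds were chosen with earlier results of these data known. Apart from the out-of-tissue lists, named genes were all measured members, the first 4 measured genes of each other list and Drd2. Genes of these lists whose call differed from that of most of their list were named too. Others were named after their values were seen. Alternatives were other thresholds, other ways to combine probe sets, quantile normalization and each array alone. Calls were tested on simulated data only for genes set well clear of the background threshold. That test does not cover genes close to it, such as Pdk1 and Hk2. Python 3.11.15, pandas 2.3.3 and numpy 2.4.6 were used.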

Additional observations from a re-analysis of the deposited data

How the results depend on the processing

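The 39 of 39 count above background was the same with the median of all probe sets as threshold (57.5% of all named genes pass), the highest probe set of a gene, quantile normalization and either array alone. It was 38 of 39 with the lowest probe set, where Pdk1 dropped out, 34 of 34 for genes with 1 probe set, and 38 of 38 with only probe sets whose neighbours match, an alternative added after the data were seen. Hk2, Ldha and Pdk4 were removed only by the 99th percentile and the out-of-tissue threshold, which also removed Pdk1. The Pdk1 probe set with matching neighbours, at 8.49 and 8.59, was over both of these thresholds. The median signal was 10.33, against 10.395 with the highest probe set and with 1-probe-set genes, and 10.28 to 10.34 on the arrays alone. At the 99th percentile and the out-of-tissue threshold, counts were 2 and 0 for isoenzymes of other tissues, 5 and 2 for endothelial and mural markers, and 4 and 3 for microglia markers. Few genes set the out-of-tissue threshold, and 11 of its 32 genes were themselves above background. No paired analysis was possible because both arrays belong to 1 group. Without detection p-values, signal over background could be judged only from other genes on the arrays.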

Other observations

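The further pathway genes held other probe sets whose neighbours by identifier lay elsewhere, reported here as values. Mpc1, a subunit of the mitochondrial pyruvate carrier, read 7.21 and 7.31 at the probe set with 20 of 20 neighbours on its chromosome, and 11.49 and 11.81 at the one with 0 of 20. Me3, a mitochondrial malic enzyme, read 8.38 and 8.24 at the probe set whose neighbours shared its strand in 13 of 14 cases, and 7.18 and 6.77 where 0 of 17 did. The succinate dehydrogenase genes, which belong to both the citric acid cycle and the respiratory chain, had 1 probe set each. Sdha read 11.75 and 11.65, Sdhb 9.83 and 9.91, Sdhc 9.90 and 9.82, and Sdhd 10.05 and 10.22, all above the out-of-tissue threshold. Aldoc, the aldolase known from brain and used as an astrocyte marker, read 11.04 and 11.06. These genes were named after their values were seen.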
